A study of Homo sapiens with 12 samples.

Results

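Genes that both lines expressed at a comparable level were followed into direct contact of 2 human cell lines, to see which of them moved in opposite directions and which moved together. HT-29 is an epithelial line from a colorectal cancer, and LAD2 is a mast cell line that depends on growth factors. The groups were LAD2 after 12 hours of direct coculture with HT-29, LAD2 alone, HT-29 after 12 hours of direct coculture with LAD2, and HT-29 alone. HT-29 had been kept in McCoy 5A medium with 10% fetal bovine serum and LAD2 in SP34 medium with its nutrient supplement. The medium of the coculture and the way in which the lines were parted before extraction are not given in the labels, so that the partner line and a change of medium cannot be told apart. A gene was a member when its mean was at least 10 counts per 1e6 counts (CPM) in both alone groups and when those means were at most 3-fold apart. Of the 58721 genes of the table, 7645 reached 10 CPM in both alone groups and 6326 of these were members. TEX30, at 10.01 CPM in LAD2 alone, lay just inside the minimum and IFT57, at 9.972 CPM, just outside. ARHGEF40, with a ratio of 2.9986, lay just inside the fold limit and NUP155, with 3.0002, just outside.

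Cell types that meet can answer the same signal in the same way, or 1 can take up what the other makes. Cholesterol is made from acetyl-CoA through mevalonate, squalene and lanosterol, and SREBP transcription factors raise the genes of this pathway when sterols in the endoplasmic reticulum are low. Type I interferons act through a transcription factor complex that holds STAT2 and IRF9 on a response element in the promoters of antiviral genes. Mast cells are known to release mediators and cytokines beside tumours, and epithelial cancer cells are known to shed lipids, cytokines and vesicles. These are general properties and not results of these libraries.

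The 3 columns of LAD2 coculture were identical in every gene and counted as 1 library, so LAD2 was compared as 1 library against 3 and HT-29 as 3 against 3. Nothing states that libraries of a group came from separate cultures, and p-values therefore measure only the spread between these samples, which may be technical. Total counts were 25.4 M (M, 1e6 counts) in LAD2 coculture, 20.5 to 22.6 M in LAD2 alone, 18.4 to 29.6 M in HT-29 coculture and 17.2 to 34.1 M in HT-29 alone. LAD2 alone replicate 3 stood apart from its group: per degree of freedom, the chi-square of its counts against the other replicates was 3.82 and 4.6, against 2.19 between those. RNA of HT-29 made up 5.26% of the LAD2 coculture library and RNA of LAD2 1.04 to 1.19% of the HT-29 coculture libraries, measured on 327 and 309 genes that the receiving line nearly lacks. The 25 epithelial markers summed to 1722 CPM in LAD2 coculture, against 803 to 845 CPM in LAD2 alone, where 11 of them were at 0. The 25 mast cell markers summed to 656 to 679.5 CPM in HT-29 coculture, against 390.4 to 402 CPM in HT-29 alone, where 15 of them were at 0. Markers of other cell types summed to at most 5.03 CPM in any library. For a member, such a mixture alone shifts the LAD2 response by -0.051 to 0.144 and the HT-29 response by -0.011 to 0.032 on the log2 scale. The shift is printed below for some members and as a range for the opposite classes. The fits were repeated with the expected mixture as an offset, taken at the other line's alone profile unless its coculture profile is named.

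Estimated responses of members spread less in HT-29 than in LAD2. The LAD2 estimates rest on 1 coculture library, vary more between replicates and hold more RNA of the other line. How much of their wider spread comes from these was not tested. The log2 response, coculture over alone, had an SD across members of 0.164 in LAD2, with a range of -1.62 to 1.57, and of 0.058 in HT-29, with a range of -0.47 to 0.32. In LAD2, edgeR called 523 members higher and 365 lower in coculture (8.27% and 5.77% of members, against 14.1% and 6.75% of the 15821 genes tested), at a Benjamini-Hochberg adjusted p under 0.05. In HT-29 it called 118 higher and 192 lower (1.87% and 3.04%, against 5.83% and 2.94% of 14070 genes). A change of at least 2-fold was reached by 11 of the called members in LAD2 and by 0 in HT-29. With the mixture as an offset, 188 members were called higher and 216 lower in LAD2, and 63 higher and 111 lower in HT-29. The difference of the responses, LAD2 minus HT-29, was called positive for 890 members and negative for 526 (14.1% and 8.31%, against 17.1% and 11.6% of 17435 genes). This split depends on the scaling. With TMM factors computed within each line the median difference was 0.00 over all tested genes and 0.02 over members, and with factors computed over all 10 libraries together it was 0.17 and 0.20, with 3252 members called positive and 120 negative. Differences below are relative to the within-line scaling. LAD2 varied more than HT-29 between replicates (biological coefficient of variation 4.03% and 1.7%), and the test of the difference uses 1 estimate for both, 2.65%, which lies below that of the LAD2 fit, so that a difference carried by LAD2 can get too small a p-value. Fewer cells that express a gene and less of its RNA per cell cannot be told apart in bulk libraries.

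Opposite movement was rare, and shared movement rarer. Called in both lines, 31 members were higher in LAD2 coculture and lower in HT-29 coculture (0.49% of members, against 1.58% of the 12880 genes tested in both lines), and 34 were lower in LAD2 and higher in HT-29 (0.537%, against 1.51%). Members higher in both lines numbered 8 (0.126%, against 0.947%) and members lower in both 6 (0.0948%, against 0.0543%). A further 809 members were called in the LAD2 fit only, 231 in the HT-29 fit only, and 5207 in neither. All 31 and all 34 opposite members were called in the test of the difference, in the direction that their class fixes. That test takes the same responses of the same libraries, so it is no separate support. Of the 8 members higher in both lines, 5 had a larger rise in LAD2 by that test, and of the 6 lower in both, 3 had a larger fall in LAD2. Across the 6326 members, LAD2 and HT-29 responses had a Pearson correlation of -0.16, given as a description because genes share libraries.

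**Figure D1:**
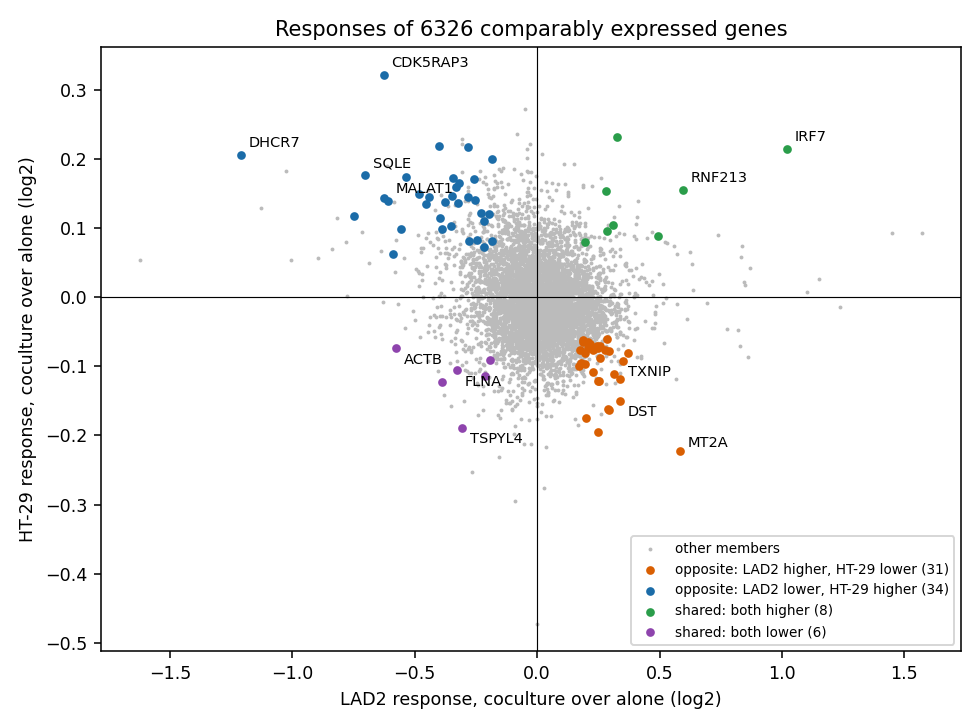
Log2 response, coculture over alone, of each of 6326 members in LAD2 (x axis) and HT-29 (y axis, on a narrower scale), with members called in both lines in colour. DHCR7 lies farthest to the left among the opposite members, at -1.21 and 0.21, and IRF7 farthest to the right among the shared ones, at 1.02 and 0.21.

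Enzymes of cholesterol synthesis made up the clearest opposite group: 5 of the 9 list members among the 6326 genes were lower in LAD2 coculture and higher in HT-29 coculture. DHCR7 (ENSG00000172893, chr11:71428193-71452868, GRCh38), the reductase that makes cholesterol from 7-dehydrocholesterol, had 158 CPM in LAD2 coculture, against 372, 349 and 366 CPM in LAD2 alone. In HT-29 it had 350.1, 353 and 360.0 CPM in HT-29 coculture, against 312, 298 and 303 CPM in HT-29 alone. The LAD2 coculture library lay far below every LAD2 alone library, while all HT-29 coculture libraries lay above all HT-29 alone libraries. Its log2 response was -1.21 (SE 0.0695) in LAD2 and 0.21 (SE 0.0214) in HT-29, and the difference was -1.41 (SE 0.0564, edgeR adjusted p = 8.89e-27). SQLE (ENSG00000104549, chr8:124998497-125022283), squalene epoxidase, had 172 CPM in LAD2 coculture, against 272, 268 and 295 CPM in LAD2 alone. The same gene had 885, 895 and 911 CPM in HT-29 coculture, against 795, 774 and 791 CPM in HT-29 alone. LAD2 was low and HT-29 high in coculture, with no overlap in either line, and the difference was -0.88 (SE 0.0579, edgeR adjusted p = 3.35e-18). SQLE is higher in HT-29, so that mixing would raise it in LAD2 by 0.132, opposite to its fall. 

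Both lines were also opposite in other steps after lanosterol. EBP, the isomerase of the sterol ring (ENSG00000147155, chrX:48521158-48528716), had 169 CPM in LAD2 coculture, against 288, 269 and 289 CPM in LAD2 alone. In the cancer line EBP had 106, 104 and 109.9 CPM in HT-29 coculture, against 98.2, 95.1 and 100.2 CPM in HT-29 alone. Every HT-29 coculture value lay above every alone value, by a small margin. Its difference was -0.86 (SE 0.0598, edgeR adjusted p = 2.31e-17), and its HT-29 response was 0.12. With the mixture as an offset that response was 0.09, not called at the alone profile (edgeR adjusted p = 0.0991) and called at the coculture profile (edgeR adjusted p = 0.0339). NSDHL, a dehydrogenase of sterol demethylation (ENSG00000147383, chrX:152830967-152869729), had 40.7 CPM in LAD2 coculture, against 60.6, 56.7 and 60.6 CPM in LAD2 alone. For the same gene the values were 114, 113 and 113 CPM in HT-29 coculture, against 106, 103 and 106 CPM in HT-29 alone. The log2 responses were -0.55 in LAD2 and 0.10 in HT-29, and the difference was -0.65 (SE 0.0705, edgeR adjusted p = 6.67e-11). In 3 further enzymes, CYP51A1, HSD17B7 and SC5D, the fall was called in LAD2 only, with log2 responses of -1.13, -1.03 and -0.84, and their HT-29 responses of 0.13, 0.18 and 0.07 did not pass. HSD17B7 shares sequence with a pseudogene copy and its value is uncertain. The mevalonate pathway kinase PMVK was called in neither line and not in the difference. Over the 9 enzymes, 8 were lower and 0 higher in LAD2, 5 were higher and 0 lower in HT-29, and 8 had a negative and 0 a positive difference. The median response was -0.75 in LAD2 and 0.12 in HT-29, beside 0.013 and -0.010 over all members. Leaving out each library in turn, other than the single LAD2 coculture library, left 8 lower in LAD2 in every case. It left 2 to 5 higher in HT-29, with 2 without HT-29 alone replicate 2 and 3 without HT-29 coculture replicate 1. With the mixture as an offset, 8 were lower in LAD2 and 4 higher in HT-29, or 5 at the coculture profile.

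The promoters of 2 opposite sterol genes are printed because these genes moved together, with CCAAT, the letters bound by NF-Y, in capitals on either strand (ATTGG is its reverse). They come from RefSeq on GRCh38.p14 and run from 250 bases before to 50 bases after the start. DHCR7 lies at chr11:71448344-71448643 on the minus strand, with matches whose first bases are at -94 and -48 from the start, and NSDHL at chrX:152830813-152831112 on the plus strand, with 5 matches, of which 2 overlap by 2 letters.
DHCR7: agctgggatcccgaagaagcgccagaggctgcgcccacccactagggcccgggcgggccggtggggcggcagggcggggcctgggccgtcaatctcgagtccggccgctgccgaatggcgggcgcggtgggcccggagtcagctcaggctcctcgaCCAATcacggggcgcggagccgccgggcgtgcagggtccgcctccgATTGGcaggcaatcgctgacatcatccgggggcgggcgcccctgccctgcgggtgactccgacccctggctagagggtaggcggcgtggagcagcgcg
NSDHL: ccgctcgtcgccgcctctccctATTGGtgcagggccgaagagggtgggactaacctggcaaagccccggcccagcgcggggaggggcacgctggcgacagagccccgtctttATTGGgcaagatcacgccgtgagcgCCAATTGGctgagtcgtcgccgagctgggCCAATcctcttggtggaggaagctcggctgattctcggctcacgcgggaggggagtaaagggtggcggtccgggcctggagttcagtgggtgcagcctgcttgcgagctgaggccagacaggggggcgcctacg

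CCAAT on either strand was in 5 of the 7 enzyme promoters found by symbol (71.4%) and in 35.7% of the first listed promoters of 27305 genes. Those 27305 genes were not limited to members, and the share over members was not computed. TCACNCCAC, the core of a sterol regulatory element, was in 0 of the 7 and in 1.15% of all. A match describes letters and is not a binding site.

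Genes around the pathway were lower in LAD2, and all but MMAB of those described here had no called change in HT-29. Of the 7 members of the sterol sensing and uptake list, 5 were lower in LAD2 and 0 passed in HT-29 in either direction, and 6 had a negative difference. TMEM97 (ENSG00000109084, chr17:28319095-28328685), a sterol-responsive membrane protein known as the sigma-2 receptor, had 68.5 CPM in LAD2 coculture, against 211, 202 and 216 CPM in LAD2 alone. HT-29 showed 151, 147 and 155 CPM in HT-29 coculture, against 143, 146 and 142 CPM in HT-29 alone, with coculture slightly above alone in every library and a response that did not pass. The LAD2 response of -1.62 (SE 0.0738) was the lowest of all 6326 members, and its difference of -1.68 (SE 0.0623, edgeR adjusted p = 4.72e-28) the most negative. ERG28, a scaffold of sterol demethylation, and SCARB1, a lipoprotein receptor, had LAD2 responses of -0.90 and -0.30 and differences of -0.95 and -0.36. AACS, which makes acetoacetyl-CoA for lipid synthesis, had a difference of -1.06. MMAB (ENSG00000139428, chr12:109553737-109573874), an enzyme of vitamin B12 metabolism whose gene overlaps the mevalonate kinase gene MVK, was an opposite member, with 27.9 CPM in LAD2 coculture, against 41.5, 42.1 and 44.5 CPM in LAD2 alone. Its HT-29 libraries had 61, 62.1 and 59.4 CPM in HT-29 coculture, against 54.8, 54.3 and 55.1 CPM in HT-29 alone. Without stated strand counting, reads of MMAB and MVK cannot be told apart where their exons overlap.

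Fatty acid genes split. Of 9 list members, 4 were lower and 3 higher in LAD2, and 2 were higher and 1 lower in HT-29. SCD, the stearoyl-CoA desaturase, was opposite, with 1472 CPM in LAD2 coculture, against 1775, 1754 and 1812 CPM in LAD2 alone. The cancer line had 950.3, 934 and 968 CPM in HT-29 coculture, against 774, 823 and 832 CPM in HT-29 alone. Its log2 responses were -0.28 in LAD2 and 0.22 in HT-29 and stayed called in both lines with the offset. SLC25A1, the mitochondrial citrate carrier, had 178 CPM in LAD2 coculture, against 252, 225 and 248 CPM in LAD2 alone. In HT-29 the carrier had 234, 229 and 229 CPM in HT-29 coculture, against 203, 208 and 215 CPM in HT-29 alone. Both genes were thus lower in LAD2 coculture than in LAD2 alone and higher in HT-29 coculture than in HT-29 alone. Groups did not overlap in either line. ACLY, which cleaves citrate to acetyl-CoA, and ELOVL6, a fatty acid elongase, were lower in LAD2 only (-0.50 and -0.58). SREBF1, which encodes a transcription factor of lipid synthesis, went the other way, with 115 CPM in LAD2 coculture, against 64.9, 67.6 and 59 CPM in LAD2 alone, a log2 response of 0.84. Its HT-29 response of 0.07 did not pass. SREBF1 shares exon sequence with RAI1, which lies on the other strand at a similar level, so its value is uncertain.

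Other members of the class lower in LAD2 and higher in HT-29 belonged to no single list. MALAT1 (ENSG00000251562, chr11:65497688-65506516), a long noncoding RNA of nuclear speckles, had 170.5 CPM in LAD2 coculture, against 269, 293 and 214 CPM in LAD2 alone. The HT-29 libraries held 126, 132 and 130.4 CPM in HT-29 coculture, against 117, 116 and 116 CPM in HT-29 alone. LAD2 alone spread widely, yet its lowest library still lay above coculture, and HT-29 coculture lay above HT-29 alone throughout. The difference was -0.75 (SE 0.0885, edgeR adjusted p = 7.96e-10). DDX39B, an RNA helicase of splicing and mRNA export (ENSG00000198563, chr6:31530219-31542448), had 68.7 CPM in LAD2 coculture, against 103, 109 and 85 CPM in LAD2 alone. Its other values were 74.3, 75.6 and 80.3 CPM in HT-29 coculture, against 66.9, 67.2 and 67.2 CPM in HT-29 alone, and its responses were -0.53 in LAD2 and 0.17 in HT-29. CDK5RAP3 (ENSG00000108465, chr17:47967810-47981774), an adaptor of UFM1 conjugation, had 11.9 CPM in LAD2 coculture, against 17.6, 20.5 and 16.5 CPM in LAD2 alone. With 12.6, 13.5 and 13.6 CPM in HT-29 coculture, against 10.5, 10.1 and 11 CPM in HT-29 alone, it had the highest HT-29 response of the 6326 members, 0.32 (SE 0.0749). FAM118A had responses of -0.40 in LAD2 and 0.22 in HT-29. The splicing-related genes CCNL2, LUC7L3, SREK1, SRRM2 and SUGP2 had LAD2 responses of -0.35, -0.28, -0.35, -0.25 and -0.26 and HT-29 responses of 0.15, 0.08, 0.10, 0.08 and 0.14. They were singled out after their values were seen, and of these 5 only CCNL2 stayed in the class with the offset, while all 5 kept a called difference, of -0.40 to -0.31 for the other 4. Of the 29 members of the splicing factor list, 1 was higher and 7 lower in LAD2, and 1 higher and 3 lower in HT-29. Without LAD2 alone replicate 1, 2 and 3, the count lower in LAD2 was 3, 4 and 10, and without replicate 3, 6 were higher. Without HT-29 alone replicate 2 or HT-29 coculture replicate 3, 1 was lower in HT-29. In LAD2 alone replicate 3, which stood apart, MALAT1, DDX39B and all 5 of these genes were at the lowest level of the 3 LAD2 alone libraries.

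Further members of the class were ENTREP3, CD46, AHSA2P, IDH1, HSPA1A, MICALL2, NADSYN1, LIMA1, PAN2, RDH11, SLC25A29, HERC2P2, CDK10, MSL1, HEXIM1, PLEKHG2 and TUBGCP6. Their LAD2 responses ran from -0.48 to -0.18 and their HT-29 responses from 0.07 to 0.20. IDH1, the cytosolic isocitrate dehydrogenase that makes NADPH, had 196 CPM in LAD2 coculture, against 215, 216 and 232 CPM in LAD2 alone. It had 152, 151 and 153 CPM in HT-29 coculture, against 127, 131 and 136 CPM in HT-29 alone, and its responses were -0.19 in LAD2 and 0.20 in HT-29. HSPA1A, an inducible heat shock protein whose reads may be shared with the near-identical HSPA1B, had responses of -0.38 in LAD2 and 0.14 in HT-29. AHSA2P shares a long exon overlap with USP34 on the other strand and is uncertain, as are HERC2P2, a pseudogene of HERC2, and SUGP2, which overlaps ARMC6. SRRM2, CDK10 and PAN2 overlap lower expressed genes. Over the 34 members the median response was -0.35 in LAD2 and 0.14 in HT-29, and the groups did not overlap in both lines for 33 of them. Over all 6326 members, 4.36% had groups apart in this pair of directions, called or not. With the mixture as an offset, 19 stayed in the class, or 20 at the coculture profile, and all 34 kept a called difference. The shift of mixing in LAD2 was -0.05 to 0.13 in this class.

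**Figure D2:**
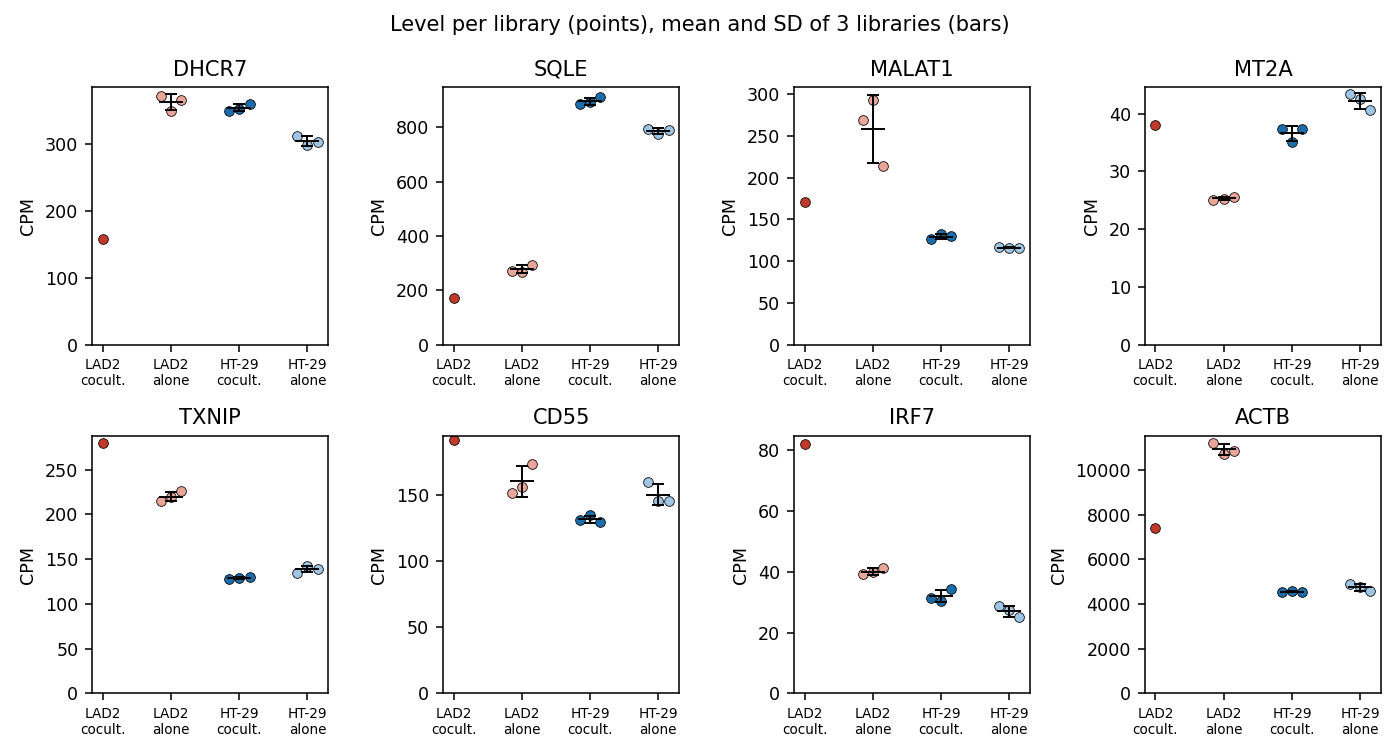
CPM per library of 8 members in the 4 groups, with points for libraries and bars for the mean and SD of 3 libraries; LAD2 coculture is 1 library. DHCR7, SQLE and MALAT1 are low in LAD2 coculture and high in HT-29 coculture relative to the line alone, MT2A, TXNIP and CD55 the reverse, IRF7 is high in both and ACTB low in both.

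The opposite class, higher in LAD2 coculture and lower in HT-29 coculture, had its highest differences in MT2A, DST and BCL2L1. MT2A (ENSG00000125148, chr16:56608199-56609497), a metallothionein that binds zinc and copper, had 38.1 CPM in LAD2 coculture, against 25.1, 25.2 and 25.6 CPM in LAD2 alone. In HT-29 the values were 37.3, 35.1 and 37.4 CPM in HT-29 coculture, against 43.4, 42.6 and 40.7 CPM in HT-29 alone. Each coculture group lay wholly on its side of the alone group, and the difference of 0.81 (SE 0.0842, edgeR adjusted p = 2.42e-11) was the largest of this class. TXNIP (ENSG00000265972, chr1:145992435-145996600), an arrestin-like protein that binds thioredoxin and restrains glucose uptake, had 280.2 CPM in LAD2 coculture, against 215, 219 and 226 CPM in LAD2 alone. The HT-29 libraries had 128, 129 and 129.9 CPM in HT-29 coculture, against 135, 142 and 139 CPM in HT-29 alone. Its response was 0.34 in LAD2, and mixing would shift it by -0.028. CD55 (ENSG00000196352, chr1:207321376-207386804), which protects cells from complement, had 192 CPM in LAD2 coculture, against 152, 156 and 174 CPM in LAD2 alone. In the cancer line CD55 had 131, 135 and 130.0 CPM in HT-29 coculture, against 159.8, 146 and 146 CPM in HT-29 alone. Its responses were 0.25 in LAD2 and -0.20 in HT-29, with almost no shift from mixing (-0.005 in LAD2). CD46, another complement regulator, was lower in LAD2 and higher in HT-29, with -0.22 in LAD2 and 0.07 in HT-29. With the offset CD46 had -0.20 in LAD2 and 0.07 in HT-29, of about the same size and not called (edgeR adjusted p = 0.0573 and 0.0867). AHNAK, a large scaffold protein, had 1047 CPM in LAD2 coculture, against 659, 939.6 and 815 CPM in LAD2 alone. LAD2 alone ranged widely, and in HT-29, with 593, 541 and 594 CPM in HT-29 coculture, against 594, 599 and 619.6 CPM in HT-29 alone, the groups overlapped. DST, a linker of cytoskeletal filaments, had responses of 0.34 in LAD2 and -0.15 in HT-29.

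BCL2L1, which encodes the survival protein BCL-XL (ENSG00000171552, chr20:31664452-31723989), had 189.8 CPM in LAD2 coculture, against 153, 149 and 159.6 CPM in LAD2 alone. HT-29 gave 355, 356 and 358 CPM in HT-29 coculture, against 405, 389 and 393 CPM in HT-29 alone. HT-29 alone is the highest group for this gene, and mixing alone would shift the LAD2 value by 0.115 of its response of 0.29, and with the offset that response was 0.18 and not called, while the difference of 0.33 was (edgeR adjusted p = 1.59e-05). JUN, a subunit of AP-1, had 102 CPM in LAD2 coculture, against 89.8, 84.1 and 90.4 CPM in LAD2 alone. Its HT-29 libraries had 111, 115 and 118 CPM in HT-29 coculture, against 133, 126 and 126 CPM in HT-29 alone, with coculture below alone throughout and a response of -0.17, while its LAD2 response of 0.20 was 0.17 with the offset and not called (edgeR adjusted p = 0.171). MAP2K3, a kinase that activates p38, SIPA1L2, a Rap regulator, SH3GL1, an endocytic adaptor, and SPATS2L had responses of 0.25 in LAD2 and -0.12 in HT-29, 0.29 in LAD2 and -0.16 in HT-29, 0.31 in LAD2 and -0.11 in HT-29 and 0.35 in LAD2 and -0.09 in HT-29. Other members were AP2B1, ANXA5, EEF1A1, EIF5A, FKBP1A, GDI2, LRRC59, NAMPT, NDUFB3, PHC2, PLEKHB2, PPA2, PTMA, PTPN11, RHEB, S100A11, SH3BGRL3, SNRPD1 and SRSF3. Their LAD2 responses ran from 0.17 to 0.29 and their HT-29 responses from -0.12 to -0.06. EEF1A1 and PTMA have many processed copies and are uncertain, as are NDUFB3 and PTPN11, which overlap HYCC2 and RPL6 on the other strand. For 26 of the 31 members the groups did not overlap in both lines, and over all 6326 members 4.6% had groups apart in this pair of directions, called or not.

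Of the 31 members of this class, 27 were higher in HT-29 alone than in LAD2 alone (median ratio of HT-29 alone to LAD2 alone 2.04), against 9 of 34 in the reverse class (0.741), beside a median of 1.07 over all members. The shift of mixing in LAD2 was -0.03 to 0.14 with a median of 0.077, against a median response of 0.25. With the offset, 6 of the 31 stayed in the class, namely MT2A, TXNIP, CD55, AHNAK, DST and SPATS2L, or 8 at the coculture profile, and 25 kept a called difference. Across all members the LAD2 response had a Pearson correlation of 0.39 with the log2 ratio of HT-29 alone to LAD2 alone, and of 0.13 after the offset, and the HT-29 response one of -0.18 (6326 genes, a description, since the alone libraries enter both measures).

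**Figure D3:**
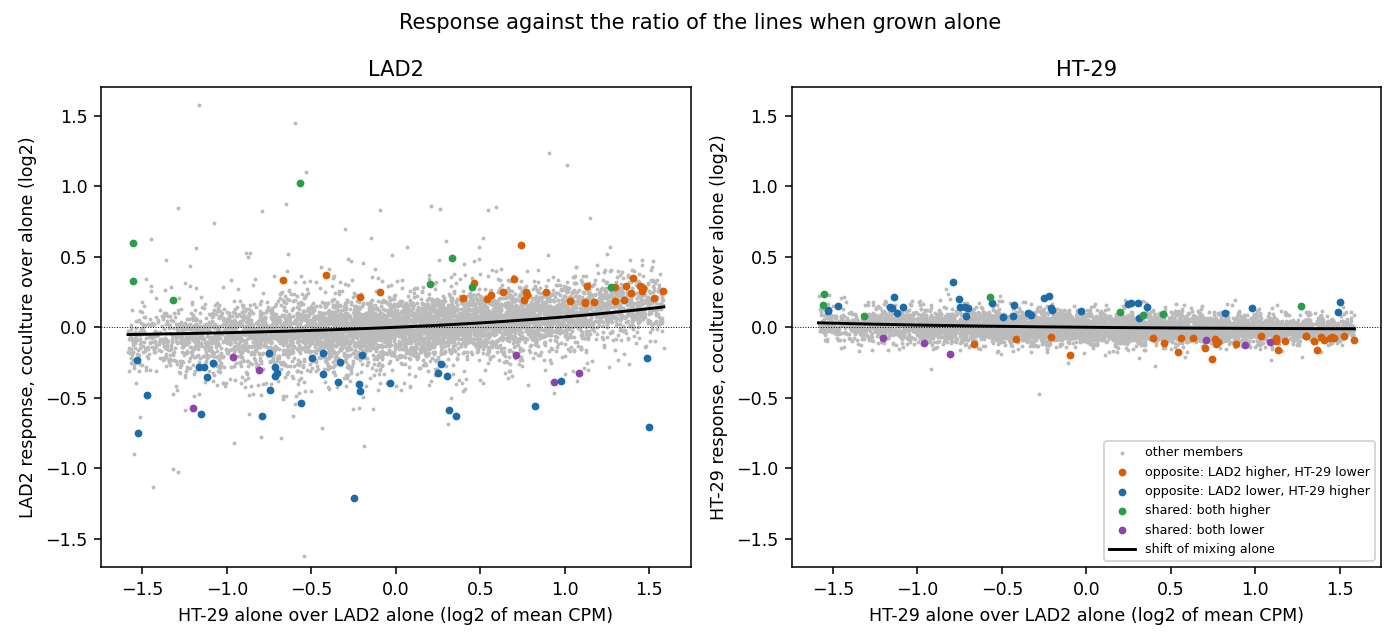
Log2 response in LAD2 (left) and HT-29 (right) against the log2 ratio of HT-29 alone to LAD2 alone, for 6326 members, with the shift that mixing at the measured share would give as a line. Members higher in LAD2 and lower in HT-29 gather at ratios above 0, where the line rises to 0.144 in LAD2, while DHCR7 and other sterol genes lie far from the line.

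Of the 8 members higher in both lines, IRF7 and RNF213 belong to the interferon-stimulated list. IRF7 (ENSG00000185507, chr11:612553-615999), the transcription factor that amplifies type I interferon, had 81.9 CPM in LAD2 coculture, against 39.1, 39.8 and 41.2 CPM in LAD2 alone. In HT-29 it had 31.2, 30.4 and 34.3 CPM in HT-29 coculture, against 28.6, 27.4 and 25.1 CPM in HT-29 alone. It was high in coculture in both lines without overlap, with responses of 1.02 (SE 0.0714) in LAD2 and 0.21 (SE 0.0519) in HT-29, and the rise was larger in LAD2 by 0.80 (SE 0.0823, edgeR adjusted p = 1.29e-11). RNF213 (ENSG00000173821, chr17:80260866-80398786), a large interferon-induced ubiquitin ligase, had 260.4 CPM in LAD2 coculture, against 150.0, 184 and 179.9 CPM in LAD2 alone. Its HT-29 libraries had 68, 63.7 and 63.5 CPM in HT-29 coculture, against 57.2, 58.2 and 59 CPM in HT-29 alone. Both lines again moved up, and the difference was 0.44 (SE 0.075, edgeR adjusted p = 4.13e-06). ANXA4, an annexin that binds membranes with calcium (ENSG00000196975, chr2:69644425-69827100), had 241 CPM in LAD2 coculture, against 189, 192 and 199 CPM in LAD2 alone. With 241, 239 and 243 CPM in HT-29 coculture, against 215, 223 and 229 CPM in HT-29 alone, its HT-29 response was 0.11, against 0.31 in LAD2. With the offset at the alone profile these 3 genes stayed in the class. At the coculture profile IRF7 and ANXA4 did, and the HT-29 response of RNF213 was not called (edgeR adjusted p = 0.133). The other 5 had responses in LAD2 and HT-29 of 0.33 and 0.23 for GATA2-AS1, 0.28 and 0.15 for POLR2L, an RNA polymerase subunit, 0.29 and 0.10 for PAPSS2, which makes the sulfate donor, 0.49 and 0.09 for TMC6, and 0.19 and 0.08 for DBI, which binds acyl-CoA. GATA2-AS1 is antisense to the mast cell gene GATA2, POLR2L overlaps CD151 and TMC6 overlaps TMC8, so without stated strand counting their reads are uncertain.

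Of the 6 members lower in both lines, ACTB had the most negative LAD2 response. ACTB (ENSG00000075624, chr7:5527147-5563784), beta-actin, had 7387 CPM in LAD2 coculture, against 11204, 10709 and 10871 CPM in LAD2 alone. The HT-29 libraries held 4528, 4578 and 4557 CPM in HT-29 coculture, against 4885, 4758 and 4600 CPM in HT-29 alone. The response was -0.57 in LAD2 and -0.07 in HT-29, with a difference of -0.50 (SE 0.0536, edgeR adjusted p = 4.87e-11). FLNA, filamin A, which crosslinks actin (ENSG00000196924, chrX:154348524-154374638), had 520.0 CPM in LAD2 coculture, against 652, 685 and 606 CPM in LAD2 alone. The HT-29 values were 1287, 1272 and 1307 CPM in HT-29 coculture, against 1381, 1364 and 1374 CPM in HT-29 alone. Coculture was low in both lines, and mixing would have raised FLNA in LAD2 by 0.083. PDLIM5, which links enzymes to actin filaments, had responses of -0.19 in LAD2 and -0.09 in HT-29. TSPYL4 had responses of -0.31 in LAD2 and -0.19 in HT-29, PTMS, a nuclear acidic protein, of -0.39 in LAD2 and -0.12 in HT-29, and LAMP2, a lysosomal membrane protein, of -0.21 in LAD2 and -0.11 in HT-29. The difference was called for ACTB, FLNA and PTMS and not for the other 3. With the offset, 5 stayed in the class, and LAMP2 had -0.17 in LAD2, not called.

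Most of the strongest differences came from members called in LAD2 only, and interferon-stimulated genes led the positive ones. Of 22 list members, 19 were higher and 0 lower in LAD2, 2 were higher and 0 lower in HT-29 (IRF7 and RNF213), and 19 had a positive and 0 a negative difference. The median response was 0.80 in LAD2 and 0.03 in HT-29. These counts were the same with the offset at the alone profile, with 1 higher in HT-29 at the coculture profile. Leaving out each library in turn, other than LAD2 coculture, gave 19 to 20 higher in LAD2 and 2 to 3 in HT-29. ISG15 (ENSG00000187608, chr1:1001138-1014540), a ubiquitin-like protein, had 251 CPM in LAD2 coculture, against 78.9, 85 and 87.8 CPM in LAD2 alone. In HT-29 the values were 41.1, 40.8 and 40.3 CPM in HT-29 coculture, against 37.8, 39.8 and 34.8 CPM in HT-29 alone, and its response of 0.09 there did not pass. The LAD2 response of 1.57 (SE 0.0634) was the highest of all members, and the difference was 1.48 (SE 0.0707, edgeR adjusted p = 1.46e-23). OAS1 and OAS3, which sense double-stranded RNA, had differences of 1.36 and 1.09. EIF2AK2, the kinase PKR, had 134 CPM in LAD2 coculture, against 53.2, 57.5 and 58.9 CPM in LAD2 alone. Its HT-29 libraries had 104, 106 and 108 CPM in HT-29 coculture, against 104, 106 and 109 CPM in HT-29 alone and overlapped. The antiviral genes TRIM14, PLSCR1, PARP14 and HELZ2 had differences of 1.12, 0.90, 0.83 and 0.83. SAMD9 was among the genes higher in LAD2, and IRF1, NMI and ZC3HAV1 did not pass in either line.

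The promoters of ISG15 and EIF2AK2 are printed for the same reason as those of the sterol genes, with GAAA, any 2 bases and GAAA again, the core of the interferon-stimulated response element, in capitals. ISG15 lies at chr1:1013247-1013546 on the plus strand, with 2 overlapping matches whose first bases are at -113 and -107 from the start, and EIF2AK2 at chr2:37156931-37157230 on the minus strand, with 1 match at -6.
ISG15: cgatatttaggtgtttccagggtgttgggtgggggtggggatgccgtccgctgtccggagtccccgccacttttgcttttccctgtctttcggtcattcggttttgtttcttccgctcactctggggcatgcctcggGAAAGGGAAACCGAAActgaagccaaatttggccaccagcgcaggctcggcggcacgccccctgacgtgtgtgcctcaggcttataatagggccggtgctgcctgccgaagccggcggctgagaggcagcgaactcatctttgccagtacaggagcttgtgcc
EIF2AK2: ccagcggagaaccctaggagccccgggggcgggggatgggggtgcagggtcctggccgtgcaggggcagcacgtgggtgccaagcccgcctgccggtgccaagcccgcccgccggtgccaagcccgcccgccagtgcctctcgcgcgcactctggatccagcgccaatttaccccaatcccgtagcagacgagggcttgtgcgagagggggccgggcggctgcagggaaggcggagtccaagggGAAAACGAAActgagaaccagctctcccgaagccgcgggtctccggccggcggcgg

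The same pattern, GAAA, any 2 bases and GAAA, was on either strand in 12 of the 19 promoters of listed interferon-stimulated genes found by symbol (63.2%) and in 3.65% of the promoters of 27305 genes. It was in 0 of the 27 and 0 of the 29 promoters found for the opposite classes, and CCAAT was in 12 of those 27 (44.4%) and 15 of those 29 (51.7%).

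Among other strong positive differences, DUSP4, a phosphatase that ends ERK signalling, had 65.4 CPM in LAD2 coculture, against 35.4, 36.2 and 35.5 CPM in LAD2 alone. HT-29 had 38.5, 40 and 39.7 CPM in HT-29 coculture, against 40.6, 42.1 and 41.1 CPM in HT-29 alone, with a response of -0.09 that did not pass. ALAS1, the first enzyme of heme synthesis, had 201 CPM in LAD2 coculture, against 115, 112 and 113 CPM in LAD2 alone, and its difference was 0.87 (SE 0.0595, edgeR adjusted p = 1.54e-17). Both were high in LAD2 coculture without overlap. Negative differences outside lipid genes were found for NRBP2 (-0.94), the ion channel gene TMEM63A (-0.86), TBC1D8 (-0.81) and SLC9A3-AS1 (-0.80), with no called HT-29 response. TMEM63A, TBC1D8, TRIM14, EIF2AK2, ERG28, MCM2, PSME1 and PSME2 overlap an expressed gene on the other strand, and SLC9A3-AS1 is an antisense gene, so their reads are uncertain. In the antigen presentation list, 3 of 6 members were higher in LAD2, 0 passed in HT-29 and 4 had a positive difference. TAP2, the peptide transporter, and PSME2 and PSME1, proteasome activator subunits, had LAD2 responses of 0.50, 0.48 and 0.26. CALR, a chaperone, had a called difference of 0.21, which was 0.12 with the offset and not called.

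Ribosomal, mitochondrial and replication genes moved as groups in LAD2 while HT-29 stayed near 0. Of 62 cytosolic ribosomal protein genes, 43 were higher and 0 lower in LAD2, 0 higher and 2 lower in HT-29, and 56 had a positive and 0 a negative difference. Their median response was 0.21 in LAD2 and -0.02 in HT-29. RPS19 had 411 CPM in LAD2 coculture, against 320.1, 312 and 337 CPM in LAD2 alone. It had 907, 889 and 883 CPM in HT-29 coculture, against 902, 955 and 896 CPM in HT-29 alone, with overlapping groups. For RPS19 mixing alone gives a shift of 0.133 in LAD2, against a response of 0.34. With the offset, 4 of the 62 stayed called in LAD2 and 27 in the difference, and 18, 28 and 59 were higher in LAD2 without LAD2 alone replicate 1, 2 and 3. The count lower in HT-29 was 8 without HT-29 alone replicate 1, 4 without replicate 3 and 0 without HT-29 alone replicate 2 or HT-29 coculture replicate 2 or 3. Ribosomal protein genes have many processed pseudogenes, so single values are uncertain. Of 13 mitochondrially encoded genes, 0 were higher and 12 lower in LAD2, 0 passed in HT-29, and 13 had a negative difference, with medians of -0.42 in LAD2 and 0.00 in HT-29. MT-CO1, a subunit of cytochrome oxidase, had 8267 CPM in LAD2 coculture, against 11438, 11463 and 10163 CPM in LAD2 alone. Its HT-29 libraries had 6145, 5875 and 5906 CPM in HT-29 coculture, against 6310, 5635 and 5831 CPM in HT-29 alone and overlapped. As a share of all counts, the 13 genes took 3.44% in LAD2 coculture, against 4.21 to 4.72% in LAD2 alone, and 2.74 to 2.95% in HT-29 coculture, against 2.63 to 3.08% in HT-29 alone. With the offset 12 of 13 were still lower in LAD2. Without HT-29 alone replicate 1, 7 of the 13 were higher in HT-29 coculture, and without each other HT-29 library 0 were. The part of RNA quality or handling of the single LAD2 coculture library was not tested.

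Of 27 S phase genes, 21 were higher and 0 lower in LAD2, 0 passed in HT-29, and 19 had a positive difference, with medians of 0.32 in LAD2 and 0.02 in HT-29. MCM5, a subunit of the replicative helicase, had 113 CPM in LAD2 coculture, against 82.4, 76 and 77.3 CPM in LAD2 alone. HT-29 gave 148, 152 and 149.7 CPM in HT-29 coculture, against 146, 145 and 149 CPM in HT-29 alone. LAD2 coculture lay above LAD2 alone, and in HT-29 the groups overlapped. MCM3, MCM2 and the ribonucleotide reductase gene RRM1 had LAD2 responses of 0.48, 0.40 and 0.30, and mixing alone shifts them by 0.117, 0.103 and 0.127. With the offset 11 of the 27 stayed higher in LAD2 and 12 in the difference. Of 43 genes of the G2 and M phases, 4 were higher in LAD2, a share near the 8.27% of all members, and 1, 1 and 11 were without LAD2 alone replicate 1, 2 and 3. With the offset 0 of them were higher in LAD2. In HT-29 3 were lower, and 13 had a positive difference, against 3 with the offset and 8 without HT-29 alone replicate 2. Among 21 heat shock and chaperone genes, 6 were higher and 1 lower in LAD2, 1 was higher in HT-29, and 10 had a positive and 2 a negative difference, against 0 and 1 with the offset. With the offset 1 chaperone gene was higher and 1 lower in LAD2. Without LAD2 alone replicate 1, 2 and 3, the count higher in LAD2 was 1, 0 and 11. HSP90AA1, HSPA9 and CCT7 had differences of 0.22, 0.23 and 0.21, which were 0.10, 0.14 and 0.08 with the offset and not called.

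**Figure D4:**
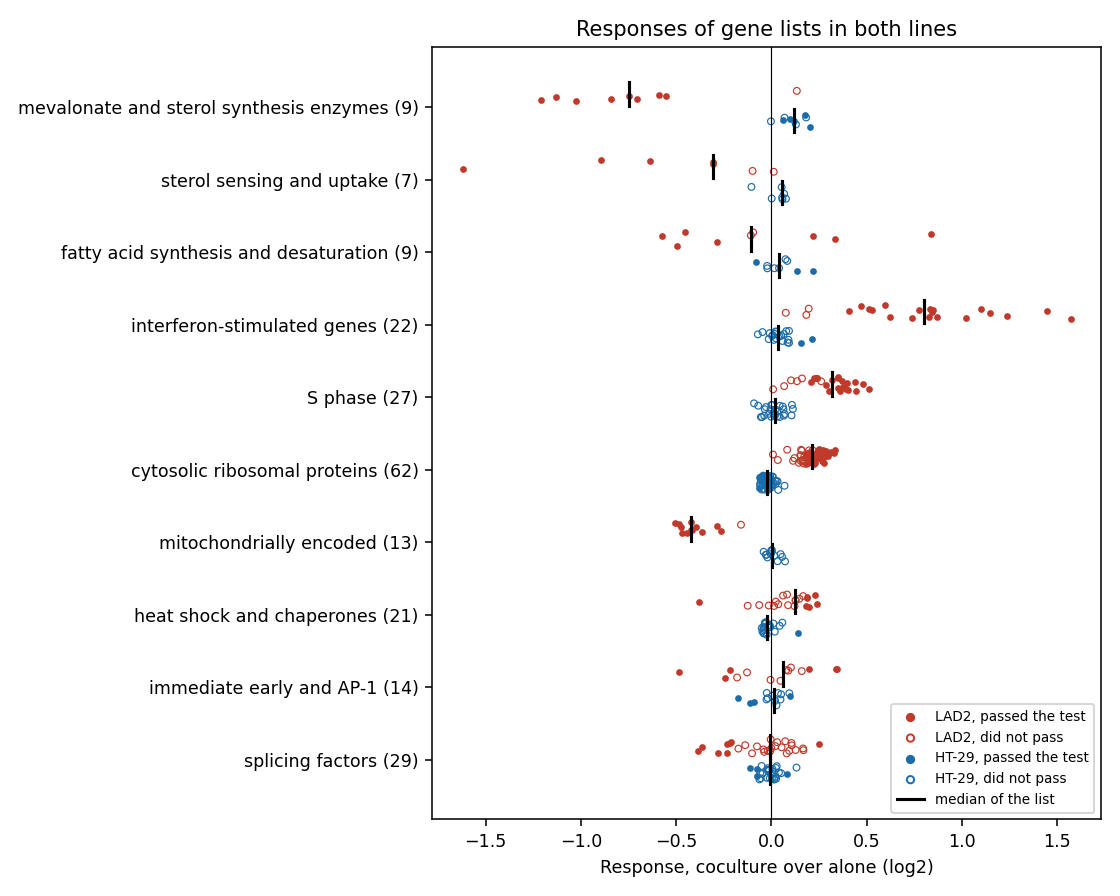
Log2 response, coculture over alone, of the members of 10 gene lists in LAD2 (red, upper row of each list) and HT-29 (blue, lower row), with filled points for members that passed the test in that line and a bar at the median. The sterol synthesis list has medians of -0.75 in LAD2 and 0.12 in HT-29, and the interferon-stimulated list 0.80 and 0.03.

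Of 9 polyamine genes, 0 passed in LAD2 (2 were higher without LAD2 alone replicate 3), 2 were higher and 2 lower in HT-29, and 3 had a positive and 3 a negative difference. AZIN1, which protects the polyamine-making enzyme ODC, had 313 CPM in LAD2 coculture, against 264, 274 and 294 CPM in LAD2 alone. In HT-29 it had 242, 241 and 249 CPM in HT-29 coculture, against 277, 274 and 273 CPM in HT-29 alone. HT-29 coculture lay below HT-29 alone throughout, and the difference was 0.35 (SE 0.055, edgeR adjusted p = 8.26e-07). SAT1, which acetylates polyamines for export and breakdown, had 38.6, 40.8 and 42.3 CPM in HT-29 coculture, against 31.4, 33.4 and 34.5 CPM in HT-29 alone, a response of 0.27 (SE 0.045), and in LAD2 one of -0.05 that did not pass. OAZ2, an antizyme that targets ODC for breakdown, had responses of -0.15 in LAD2 and 0.18 in HT-29, and ATP13A3, a polyamine transporter, of 0.13 in LAD2 and -0.07 in HT-29. Mixing alone shifts ATP13A3 by 0.125 in LAD2. With the offset its responses were 0.00 in LAD2 and -0.06 in HT-29, and its difference was 0.06, none of them called. Of 14 immediate early and AP-1 genes, 3 were higher and 3 lower in LAD2, 1 was higher and 3 lower in HT-29, and 5 had a positive and 4 a negative difference. Without LAD2 alone replicate 1, 1 was lower in LAD2, and without HT-29 alone replicate 2, 2 had a negative difference. SRF, a transcription factor of actin and early genes, ZFP36L1, which destabilises mRNAs, and IER5 had LAD2 responses of -0.48, -0.22 and 0.34 without a called HT-29 response. SRSF3, PNISR and LUC7L, of the splicing list, had differences of 0.32, -0.41 and -0.49. 

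The title of the study names an epithelial to mesenchymal change, and 6 of the 31 genes of that list are members. The rule leaves out genes under 10 CPM in either line alone or more than 3-fold apart. The counts therefore describe these 6 members and not that change as a whole. In LAD2 0 passed, in HT-29 1 was higher and 2 lower, and 2 had a positive and 1 a negative difference. Without HT-29 alone replicate 3 or HT-29 coculture replicate 3, 0 were lower in HT-29, and without LAD2 alone replicate 3, 2 were higher in LAD2. CD44, a hyaluronan receptor, had 906 CPM in LAD2 coculture, against 936, 931 and 983 CPM in LAD2 alone. In the cancer line CD44 had 471, 466 and 495 CPM in HT-29 coculture, against 428, 441 and 454 CPM in HT-29 alone. HT-29 coculture lay above HT-29 alone, with a response of 0.10 (SE 0.0218), and mixing shifts it by 0.018. TIMP1, an inhibitor of matrix proteases, and ITGB1, an integrin subunit, had HT-29 responses of -0.10 and -0.06, and JUP, of adherens junctions and desmosomes, -0.00. The differences of CD44 and ITGB1 were -0.12 and 0.12 with the offset and not called. Of 24 proteasome genes, 5 were higher in LAD2 and 0 in HT-29, with 11 positive differences and 3 with the offset. With the offset 1 of the proteasome genes was higher in LAD2. Without LAD2 alone replicate 1, 2 and 3, the LAD2 count was 3, 3 and 10, and the positive differences were 7 without HT-29 alone replicate 1 or 2 and 17 without LAD2 alone replicate 3. Of 45 nuclear genes of the respiratory chain, 11 were higher and 1 lower in LAD2 and 1 lower in HT-29, with 17 positive and 1 negative difference and 5 and 0 with the offset. With the offset 1 of these genes was higher and 1 lower in LAD2. Without LAD2 alone replicate 1, 2 and 3, 2, 4 and 23 were higher in LAD2, and the positive differences were 11 without LAD2 alone replicate 2, HT-29 alone replicate 2 or HT-29 coculture replicate 1. Glycolysis (13 members) had 5 higher in LAD2 and 5 positive differences, and 2 and 5 with the offset. Over all 6326 members, 8.27% were higher in LAD2, and 188 members were with the offset. Lists of LXR target, metallothionein, ERK feedback, ATF4 target, tRNA synthetases, endoplasmic reticulum stress, hypoxia, NRF2, p53, NF-kappaB, MYC, lysosome, iron and TGF-beta genes had at most 3 called members in LAD2 and at most 2 in HT-29 in either direction, and at most 4 in either line when 1 library was left out. Of the marker lists, 1 mast cell marker and 2 epithelial markers were members, with 0 called in either line and 1 called difference, and 0 of the 20 markers of other cell types were members.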

How the data were processed

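RNA sequencing libraries of HT-29 and LAD2, each alone or in coculture, were prepared with the NEB NextUltra DNA Library kit after RNeasy mini (HT-29) or micro (LAD2) extraction, per the labels' protocols. The authors deposited raw counts per gene, not normalized. The submitters' processing notes name FastQC 0.11.9, STAR 2.7.10a, DESeq2 and the build hg38. Which program counted reads, whether it used strand and with which annotation is not given in the sources used here. Gene identifiers were matched to GENCODE 29 after the same version characters were removed, 58721 of 58721.

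LAD2 and HT-29 were fitted separately in edgeR 4.0.16 (R 4.3.3; TMM, filterByExpr, two-sided quasi-likelihood F test, Benjamini-Hochberg adjustment over all tested genes), and the difference of responses as an interaction over the 10 distinct libraries. The lone LAD2 coculture library was assumed to vary like LAD2 alone. TMM factors of the joint fit were computed within each line, a choice made after the data had been seen, because factors over all libraries shifted the median difference. The scripts were tested on simulated data.

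The share of the other line was the median, over genes nearly absent from a line, of the gain in coculture over the other line's level, and the offset was the log of the mixture expected at that share. Gene levels are CPM of total counts and are not compared between genes. Depth of 17.2 M to 34.1 M (M, 1e6 counts) puts 3 counts at 0.088 to 0.174 CPM, which covers counting error only and lies far under the minimum of 10 CPM.

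Members and lists were chosen with earlier results of these data known. Counts of a list cover its members only, such as 22 of the 77 interferon-stimulated genes listed and 9 of the 20 sterol synthesis enzymes listed. Named genes are the 10 largest differences in each opposite class, the members of the shared classes, the 10 most positive and 10 most negative other differences, up to 4 members of each list with at least 5 members of which 0.5 or more were called in the difference (a limit set after values were seen), and the members at each edge of the rule; other genes named were chosen after their values were seen. A few genes that the rule takes are not reported here by name, and the counts include them. Alternatives were DESeq2 1.42.0, its size factors, no filter, limma 3.58.1 voom with weights per line, other limits of the rule, a replicate block, responses from the joint fit, the offset, and leaving out each library other than LAD2 coculture. The single LAD2 coculture library enters every LAD2 response and every difference, so how far they depend on it was not tested. Same-numbered HT-29 libraries had correlations of their deviations of 0.0657, 0.0427 and 0.1. These are small but above those of the other pairs, -0.0847 to 0.0301. The main fits did not take the numbers as pairs, and the replicate block gives the other choice.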

Additional observations from a re-analysis of the deposited data

Results flagged for a closer look

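These genes were taken for a closer look because the LAD2 response, coculture over alone, differed from the HT-29 response by the interaction test in edgeR at an adjusted p under 0.05. Each value is that difference on the log2 scale, LAD2 minus HT-29, and rests on 1 LAD2 coculture library. No group has the number of samples that a test for a single outlying sample needs.

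In genes lower in LAD2 and higher in HT-29, it was -1.41 for DHCR7, -0.95 for CDK5RAP3, -0.88 for SQLE, -0.86 for EBP, -0.77 for MMAB and -0.75 for MALAT1. A further set had -0.71 for DDX39B, -0.65 for NSDHL, -0.62 for FAM118A, -0.59 for SLC25A1, -0.52 for HSPA1A and -0.36 for LUC7L3. In genes higher in LAD2 and lower in HT-29, it was 0.81 for MT2A, 0.49 for DST, 0.46 for BCL2L1, 0.45 for TXNIP, 0.45 for AHNAK and 0.45 for SIPA1L2. A further set had 0.45 for CD55, 0.44 for SPATS2L, 0.42 for SH3GL1, 0.38 for MAP2K3, 0.37 for JUN and 0.32 for SRSF3. In genes higher in both lines it was 0.80 for IRF7, 0.44 for RNF213, 0.41 for TMC6, 0.20 for ANXA4 and 0.19 for PAPSS2. In genes lower in both lines it was -0.50 for ACTB, -0.26 for PTMS and -0.22 for FLNA.

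In interferon-stimulated genes called in LAD2 it was 1.48 for ISG15, 1.36 for OAS1, 1.25 for EIF2AK2 and 1.09 for OAS3. It was 1.12 for TRIM14, 0.90 for PLSCR1 and 0.83 for PARP14, of the same list. In further genes with strong positive values it was 0.95 for DUSP4, 0.87 for ALAS1 and 0.83 for HELZ2. In sterol genes not called in HT-29 it was -1.68 for TMEM97, -1.26 for CYP51A1, -1.21 for HSD17B7 and -0.95 for ERG28. It was -0.91 for SC5D and -0.36 for SCARB1, also sterol genes. In other genes with strong negative values it was -1.06 for AACS, -0.94 for NRBP2, -0.86 for TMEM63A and -0.81 for TBC1D8. A further set had -0.80 for SLC9A3-AS1. In fatty acid genes it was 0.76 for SREBF1, -0.66 for ELOVL6 and -0.54 for ACLY. In antigen presentation genes it was 0.52 for PSME2, 0.47 for TAP2, 0.27 for PSME1 and 0.21 for CALR. In ribosomal protein genes it was 0.39 for RPS19, 0.37 for RPS6 and 0.34 for RPL38. In mitochondrially encoded genes it was -0.55 for MT-ND5, -0.50 for MT-ND4L, -0.50 for MT-CYB and -0.42 for MT-CO1. In S phase genes it was 0.52 for MCM3, 0.50 for MCM5, 0.40 for MCM2 and 0.35 for RRM1. In chaperone genes it was 0.23 for HSPA9, 0.22 for HSP90AA1 and 0.21 for CCT7. In early response genes it was -0.52 for SRF, 0.34 for IER5 and -0.27 for ZFP36L1. In polyamine genes it was 0.35 for AZIN1, -0.33 for OAZ2, -0.32 for SAT1 and 0.20 for ATP13A3. In splicing genes it was -0.49 for LUC7L and -0.41 for PNISR. In genes of the epithelial and mesenchymal list it was 0.26 for TIMP1, 0.20 for ITGB1 and -0.18 for CD44.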

How the results depend on the processing

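Counts of members are given here as LAD2 higher, LAD2 lower, HT-29 higher, HT-29 lower, difference positive, difference negative, then the classes LAD2 higher with HT-29 lower, LAD2 lower with HT-29 higher, both higher and both lower. Counts that moved by more than 1.5 times from 523, 365, 118, 192, 890, 526, 31, 34, 8 and 6 were as follows. With DESeq2's Wald test they were 227, 144, 27 and 70 for the responses, 281 negative differences, and 18, 7 and 2 for all classes but the last. With both responses from the joint fit they were 884, 632, 42 and 62, and 14, 21 and 5 for the same classes. With the offset at the other line's alone profile they were 188, 216, 63, 111, 342 and 290, and 6, 20 and 3, and at its coculture profile 190, 219, 63, 112, 367 and 315, and 8, 21 and 2. TMM over all libraries gave 3252 positive and 120 negative differences. With alone groups at most 2-fold apart there were 276 higher in LAD2, 526 positive differences, 15 in the first class and 4 higher in both; fewer genes are members there. The offset at the coculture profile, TMM over all libraries and the list counts by setting were chosen after seeing the data. No count changed that much with DESeq2's size factors, without a filter, with a minimum of 20 CPM, or, for the difference, with limma voom.

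Leaving out 1 library at a time, other than LAD2 coculture, gave 296 to 924 higher and 223 to 651 lower in LAD2. In HT-29 it gave 53 to 121 higher and 104 to 205 lower. Differences called were 717 to 1222 positive and 440 to 759 negative. There were 15 to 61 and 19 to 46 opposite members, and 4 to 14 and 3 to 9 shared members. Without LAD2 alone replicate 3 the LAD2 counts were 924 and 651 and the first class held 61, without replicate 1 they were 296 and 223 and it held 15, and without replicate 2 it held 20. Without HT-29 alone replicate 2 the HT-29 counts were 53 and 104 and the opposite classes 16 and 19, with 4 and 3 shared, and without HT-29 coculture replicate 1, 69 were higher. Members higher in both lines were 5 without HT-29 coculture replicate 2 and 14 without HT-29 alone replicate 3.

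With a replicate block in HT-29 the counts were 146 higher and 253 lower in HT-29, 768 and 461 differences, and 43, 38, 11 and 7 in the classes; each HT-29 coculture library correlated best with the alone library of its own number, a hint from the data only, and LAD2 coculture has 1 library and no pair. For the named genes, 1840 values under alternatives kept their call, 91 lost it and 9 gained it, and 0 changed sign past the threshold. Most of these values were differences, up to 96 per alternative, and responses of a line were counted for 14 genes only. Of the 14 HT-29 responses, 9 lost their call with DESeq2's Wald test and 8 without HT-29 alone replicate 2, while all 14 kept it with the replicate block. The pooled counts therefore do not describe the opposite classes, which kept 6 of 31 and 19 of 34 members with the offset. The cause of these changes was not tested. At 17.2 M (M, 1e6 counts) or more, 3 counts lie far under the 10 CPM of a member. LAD2 coculture has 1 library, and the coculture medium is not known.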
